A study of Drosophila melanogaster with 4 samples.

Results

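The genes described are 10 regulators of sex determination and dosage compensation in Drosophila melanogaster: Sxl, tra, dsx, msl-1, msl-2, msl-3, mle, mof, roX1 and roX2. They were chosen by name, and every entry of the files that belongs to them was kept, with female- and male-specific stretches apart. An entry is a stretch of exons held by one set of annotated transcripts, and entries of a gene can overlap. The 10 genes had 54 of the 30950 entries. In all, 14061 genes were named through transcript IDs, and Sxl, matched by its place and exon lengths (below), is not among them. The samples were 4 RNA libraries of wing imaginal discs, the larval tissue that forms the adult wing, dissected from third-instar larvae. There was 1 library per genotype, each from a pool of 300 discs collected as 6 batches. In the library labelled FH-cortoCD the driver sd::Gal4 switches on UAS::FH-cortoCD, the tagged chromodomain of the chromatin protein Corto. In the library labelled RpL12-Myc it switches on UAS::RpL12-Myc, a tagged ribosomal protein. These 2 libraries are called the assays below. The control library, sd::Gal4/+, has the driver without a transgene, and the w1118 library has neither of them. All lines were isogenized with w1118. The driver follows scalloped and is not active in every disc cell, and discs of the assays keep their own copies of corto and RpL12.

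In flies, functional SXL, a splicing factor, is made in females only and sets both sexual identity and the fate of the X chromosome. SXL directs the splicing of tra, and TRA with TRA2 directs dsx into its female form, while without TRA the last exons of dsx are the male ones. SXL also keeps an intron in the leader of msl-2 and blocks its translation. In males MSL-2 assembles with MSL-1, MSL-3, the helicase MLE, the acetyltransferase MOF and the noncoding RNAs roX1 and roX2 into a complex that raises transcription of the X.

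The samples were taken as labelled, within some limits. GEO's labels give no sex, and the study's methods state that discs came from female larvae. The genotype labels name the transgenes of the assays the other way round from the titles, and the titles were followed, so the assays are named as labelled. The summed counts ranged from 26833482 in w1118 to 44736060 in the library labelled RpL12-Myc. There is no replicate, so each test compares the reads of 2 libraries and not the genotypes. The 2 reads of each pair were made from the same fragment, which makes the intervals narrower than they should be, and they cover counting error only. Values given in a row follow the order FH-cortoCD, RpL12-Myc, the control sd::Gal4/+, w1118. All 8 wing disc markers were detected in every library, with summed levels of 1228 to 1571 reads per 1000000 counts (RPM, with scaled library sizes). Markers of other tissues differed between the libraries. The 6 fat body markers summed to 662, 949, 1383 and 60.8 RPM. Not all of these genes followed the lower sums of the assays. At an adjusted P-value below 0.05 (binomial test of edgeR, below), 4 were lower and 1 was higher than the control in each assay. On the log2 scale Fbp1 stood at -1.88 for FH-cortoCD and -0.98 for RpL12-Myc, and Lsp1beta at 0.28 and 0.35. All 6 were lower in w1118. The 4 midgut markers summed to 21.8 and 127 in the assays and to 0.0563 and 0.179 in the other libraries, each with 3 of 4 genes at 0. Their part in the results below was not tested. In pools of whole discs, fewer cells of a type and less RNA per cell cannot be told apart.

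Levels were compared per length, as reads per kb of the entry per 1000000 counts (RPKM, with scaled library sizes) and with the exact 95% Poisson interval of the count. Sxl was the most abundant of the 10 genes in every library, with 45.6, 43.5, 67.7 and 64.7 for its most abundant entry. The order below it changed between the libraries. In sd::Gal4/+, mle followed at 27.9, then dsx at 20.9, msl-1 at 18, tra at 15.9, msl-3 at 15.3, msl-2 at 10.2 and mof at 8.74. The intervals of tra (14.3 to 17.8) and msl-3 (14.1 to 16.5) overlapped each other, and that of tra also the interval of msl-1 (17.4 to 18.6). In FH-cortoCD, tra at 25.2 stood above dsx at 19.9 and mle at 19.4. The 2 roX RNAs were the lowest in every library. roX1 lay between 2.70 in FH-cortoCD and 7.76 in w1118, and roX2 between 0.175 in sd::Gal4/+ and 0.473 in w1118. Thus 8 protein-coding regulators were present at levels within an order of magnitude, and the noncoding roX2 was near the limit of detection.

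**Figure D1:**
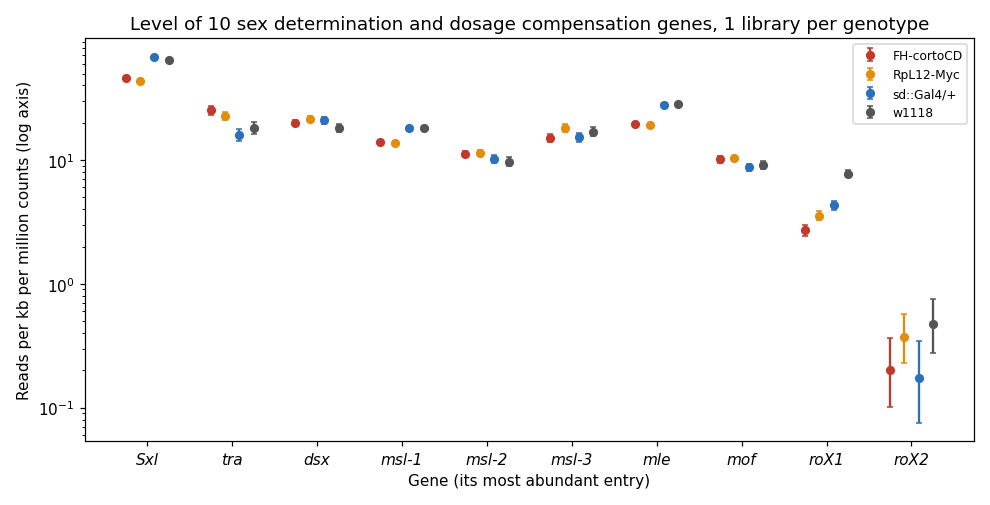
Level of each gene by its most abundant entry, in RPKM (reads per kb per 1000000 counts) on a log axis, with 1 point per library and exact 95% Poisson intervals. Sxl was the highest gene in all 4 libraries, from 43.5 to 67.7, and roX2 the lowest, from 0.175 to 0.473.

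Against sd::Gal4/+, an entry was called when the binomial test of edgeR gave an adjusted P-value below 4e-18 and the absolute log2 fold change exceeded 1, the cut-offs of the study's methods. By this rule, 0 of the 54 entries were called higher and 1 lower in FH-cortoCD, where 1.40% and 1.82% of all entries were called. In RpL12-Myc 0 were called higher and 1 lower, with 0.960% and 2.52% of all entries called. In w1118 0 were called either way, beside 0.0194% higher and 0.233% lower over all entries. With the fold limit and an adjusted P-value below 0.05, 0 entries were higher in any library, and 2 were lower in FH-cortoCD, 3 in RpL12-Myc and 0 in w1118. The shares over all entries by that rule were 4.43% higher and 4.51% lower, 3.79% and 5.95%, and 0.391% and 1.16%. The third entry of RpL12-Myc was a 557-base entry of dsx, with 0 reads against 5 in sd::Gal4/+. By edgeR's exact test with the dispersion between the control libraries, 0 were higher, and 2, 2 and 0 were lower, beside 3.52% and 3.61%, 2.84% and 4.83%, and 0.129% and 0.740% of all entries. The entry called lower by the main rule was the same in both assays, the male last exons of dsx. At an adjusted P-value below 0.05 alone, 6 entries were higher and 20 lower in FH-cortoCD (19.3% and 19.7% of all entries), 10 higher and 19 lower in RpL12-Myc (19.7% and 20.1%), and 5 higher and 6 lower in w1118 (4.66% and 6.24%). Over the 48 entries that reached 10 reads in all libraries the median log2 fold change was -0.07 in FH-cortoCD, -0.11 in RpL12-Myc and -0.01 in w1118, and over the 18486 such entries of all genes it was -0.01 in each assay. The assays share their control library, so their values are set side by side and are not independent.

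**Figure D2:**
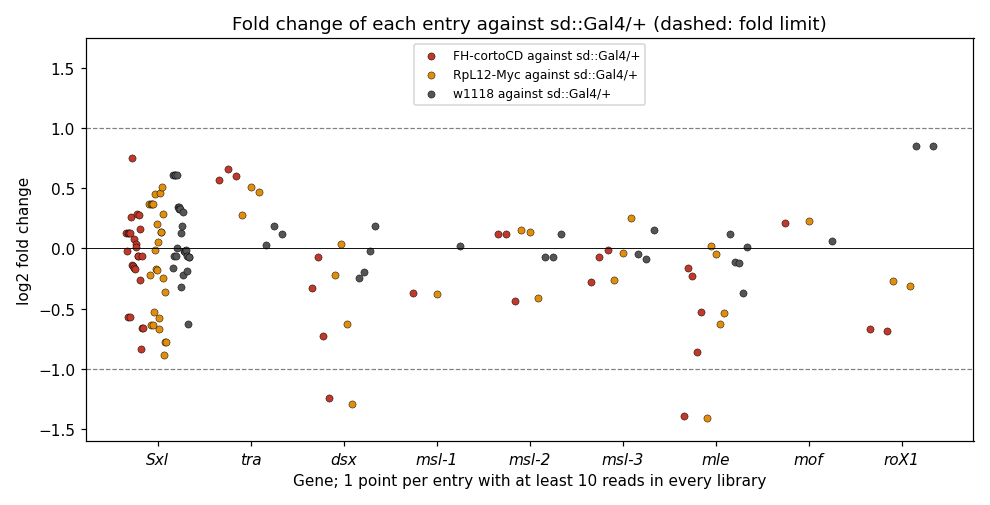
Log2 fold change against sd::Gal4/+ of each entry that reached 10 reads in all libraries, by gene and library, with dashed lines at the fold limit of 1. In the assays the male last exons of dsx (-1.24 and -1.29) and a 154-base entry of mle (-1.39 and -1.41) lie below the line, and the 2 roX1 entries of w1118 are the highest points of that library (0.85 each).

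Stretches that some forms of a transcript hold and others lack were compared next. For Sxl and dsx these are sex-specific exons. For tra the stretch belongs to the non-sex-specific form, and for msl-2 it is the leader intron. For Sxl, none of the 23 transcript IDs of its 29 entries was found in the reference annotation. The locus was identified by its place on the X chromosome of dm3, from 6969698 to 6992086 on the minus strand between CG4607 and CG4615, the genes that flank Sxl in the reference. Of its 24 entries that are single stretches, 19 (79.2%) had the exact length of a Sxl exon, against at most 20.0% in 45 other unnamed loci. The male exon of Sxl, which carries a stop codon and is skipped in females, is an entry of 190 bases. It had 49, 31, 40 and 36 reads. A 290-base entry found in 21 of the 23 transcripts had 1321, 1614, 915 and 707 reads. Per base, the male exon thus stood at 5.7%, 2.9%, 6.7% and 7.8% of the common entry. Its share of the reads of both was 3.6% (exact 95% interval 2.7 to 4.7) in FH-cortoCD, 1.9% (1.3 to 2.7) in RpL12-Myc, 4.2% (3.0 to 5.7) in sd::Gal4/+ and 4.8% (3.4 to 6.6) in w1118. The interval of RpL12-Myc lies below those of both control libraries. The 290-base entry had more reads there (log2 fold change 0.51), and the male exon was at -0.67 ± 0.35 (edgeR adjusted P-value 0.126). The separation thus depends on the entry taken as common. The 336-base and 449-base entries of Sxl were at 0.14 and -0.18 in RpL12-Myc, and shares against them were not computed.

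In tra, on chromosome 3L of dm3, the non-sex-specific form begins its second exon 175 bases before the acceptor site that females use. The entry with this exon (579 bases, from 16583452 to 16584030) had 618, 577, 328 and 294 reads, and the female exon alone (404 bases) had 539, 512, 299 and 256. The differences, 79, 65, 29 and 38 reads, lie wholly within the 175-base stretch. They were 12.8%, 11.3%, 8.8% and 12.9% of the reads of the exon, with intervals that all overlap (6.0 to 12.5 in sd::Gal4/+, 9.3 to 17.3 in w1118). Counted per position at which a full-length read of 50 bases can start, the stretch stood at 47.0%, 40.7%, 31.1% and 47.6% of the density of these 404 bases. The 404 bases lie inside the longer exon, so that their reads can come from either form, and no read is specific to the female one. Reads of the non-sex-specific form were seen in all pools. The longer entry had log2 fold changes of 0.66 in FH-cortoCD (edgeR adjusted P-value 4.94e-11) and 0.51 in RpL12-Myc (1.39e-06), below the fold limit. In w1118 the value was 0.19 (0.44). The end entry of tra overlaps l(3)73Ah on the other strand by 74 bases, and no source states that the counting used strand.

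dsx, on the minus strand of chromosome 3R, makes the DSX transcription factors, and its female and male forms differ in their last exons. The female last exon (1176 bases, from 3760200 to 3761375) had 628, 696, 873 and 677 reads. The male last exons (1555 bases between 3750045 and 3756409) had 223, 223, 442 and 398. Per base the male exons stood at 26.9%, 24.2%, 38.3% and 44.5% of the female one. The male share of reads was 26.2% (23.3 to 29.3), 24.3% (21.5 to 27.2), 33.6% (31.1 to 36.2) and 37.0% (34.1 to 40.0). The intervals of the assays do not overlap those of sd::Gal4/+ and w1118, while those within each pair do. These shares count all reads of the male exons, some of which may come from lds on the other strand (below). The male exons were called lower in both assays, with log2 fold changes of -1.24 ± 0.12 (counting SE, edgeR adjusted P-value 4.87e-26) in FH-cortoCD and -1.29 ± 0.12 (1.74e-28) in RpL12-Myc, and 0.19 ± 0.10 (0.275) in w1118. The female exon had -0.73 ± 0.08 (3.43e-21) and -0.63 ± 0.07 (3.73e-17), under the fold limit of 1, and -0.02 in w1118. The exons common to both forms (1509 bases) had 1269, 1427, 1120 and 767 reads and fold changes of only -0.07, 0.04 and -0.20. The 946-base entry at the 5′ end had 432, 483, 456 and 303 reads and was at -0.33, -0.22 and -0.25, and another 5′ entry of 557 bases had 3, 0, 5 and 1. Each sex-specific end of dsx was therefore lower in the assays than the common exons before it, and the male end the lower of them.

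The call on the male exons has limits. It was lost with the first reads of the pairs alone (-1.09 and -1.17) or the second alone (-1.38 and -1.42), where the adjusted P-values of 2.84e-17 to 1.76e-10 missed the cut-off, and with unscaled counts, where the fold change was -0.99 in both assays. Its span also overlaps by 167 bases the end of lds, a gene on the other strand with 4193, 4791, 4394 and 3494 reads over 3538 bases. At the mean density of lds, 167 bases would hold 198, 226, 207 and 165 reads, about as many as all reads of the male exons in the assays. As the counting is not stated to use strand, reads of the 2 genes cannot be told apart. The male exons were nevertheless covered beyond the overlap: in each file of each library at least 86.5% of the 1388 bases outside it held a read, which takes, over both files, at least 51 to 53 reads. lds itself had log2 fold changes of -0.32, -0.18 and 0.01. The 4 neuron markers summed to 29.3 and 27 RPM in the assays and to 55.7 and 54.5 in sd::Gal4/+ and w1118. Nearly all their reads were of elav, which was at -0.97 in FH-cortoCD and -1.07 in RpL12-Myc. fne had 54, 41, 48 and 35 reads and was at -0.08 and -0.53 in the assays. nSyb, with 2 to 7 reads, and brp, with 1 to 5, were higher in both assays. The lower sum of these markers was thus largely that of elav. Their part in the dsx result was not tested.

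msl-2, on chromosome 2L from 3463707 to 3466111, has an entry with the leader intron (2405 bases) and one without it (2272 bases). They had 1130 against 1123 reads in FH-cortoCD, 1194 against 1189 in RpL12-Myc, 873 against 866 in sd::Gal4/+ and 654 against 650 in w1118. The 133-base intron, which SXL keeps in female transcripts, thus held 7, 5, 7 and 4 reads wholly inside it, or 0.6%, 0.4%, 0.8% and 0.6% of the reads of the longer entry. Per start position its density was 16.9%, 11.4%, 21.9% and 16.6% of that of the rest. With so few reads, no difference between the libraries was detectable (the lowest bound of the shares was 0.1% and the highest 1.6%). Most bases of the intron were still covered, with 0 to 28 of 133 without a read. The spliced form, typical of males, and the unspliced form share all other exons, so the files do not keep the spliced form apart.

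**Figure D3:**
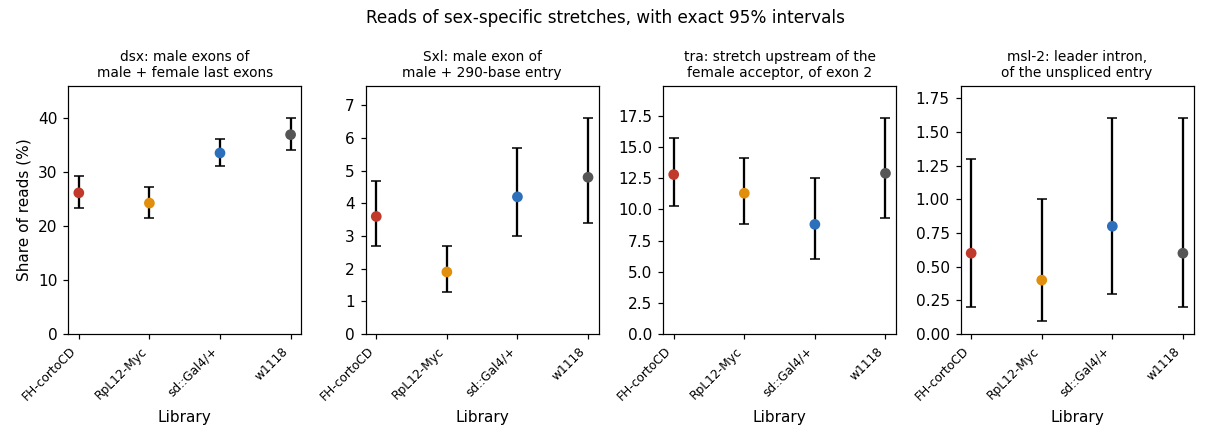
Share of reads, in percent, from the male last exons of dsx, the male exon of Sxl, the stretch before the female acceptor site of tra and the leader intron of msl-2, with 1 point per library and exact 95% intervals. The male share of dsx is 26.2% and 24.3% in the assays and 33.6% and 37.0% in sd::Gal4/+ and w1118. Reads of lds, on the other strand, may be among those of the male exons of dsx.

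The entries of Sxl did not change together. Across the locus the most abundant entry had 8016, 7957, 10000 and 7533 reads and stood at -0.57 and -0.64 on the log2 scale in the assays and at -0.06 in w1118. Entries within the gene lay above the 3′ parts. The 449-base exon was at -0.16 and -0.18 in the assays and at 0.33 in w1118, and the 336-base exon at -0.06, 0.14 and -0.02. The 290-base entry was higher by 0.28 (edgeR adjusted P-value 2.87e-05) and 0.51 (3.33e-17), and an exon of 221 bases by 0.16 and 0.29. The last exon of 2658 bases, the 3′-most with more than 8 reads, had 6647, 6343, 8796 and 6610 reads and was at -0.66 and -0.78. At another 3′ end, 3 entries begin at the same acceptor site and run for 221, 656 and 1899 bases, so that the reads lying wholly in each extension can be had by subtraction. The 221 bases had 1106, 1265, 834 and 652 reads. The next 435 bases had 383, 296, 669 and 487, and the 1243 bases after them 328, 262, 1226 and 742. The log2 fold changes of these 3 stretches were 0.16, -1.06 and -2.15 in FH-cortoCD, 0.29, -1.48 and -2.53 in RpL12-Myc, and -0.01, -0.11 and -0.38 in w1118. The exon start was thus slightly higher in the assays, the next 435 bases lower, and the 1243 bases after them lower still. These stretches were singled out after their values were seen, and no test was run on the differences. The 5′-most entries of Sxl, of 33 to 181 bases, had as few as 6 reads in a library and lay between -0.53 and 0.83 in the assays. By entry, the 1899-base stretch was at -0.84 and -0.89 and was not called.

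**Figure D4:**
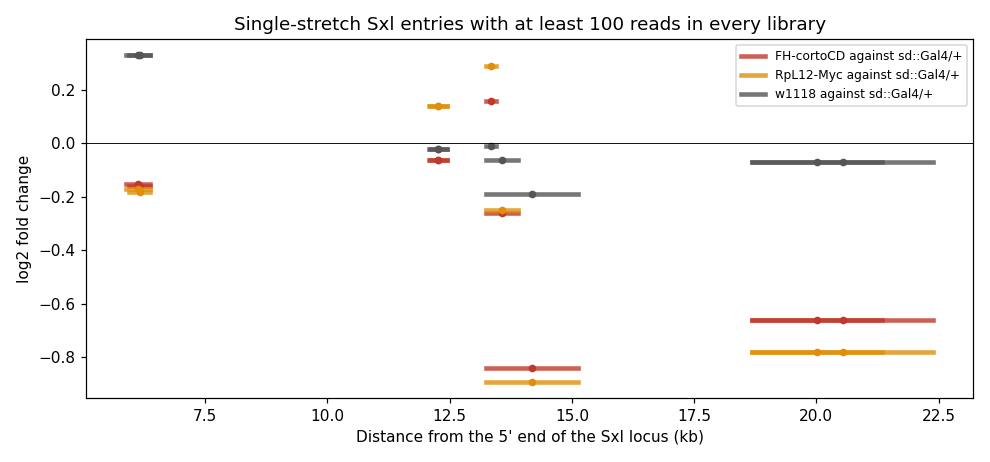
Log2 fold change against sd::Gal4/+ of the single-stretch Sxl entries that reached 100 reads in all libraries, at their distance from the 5′ end of the locus in kb, with bars as long as the entries. In the assays the 1899-base entry (-0.84 and -0.89) and the last exon (-0.66 and -0.78) are the lowest. In w1118 the highest value is 0.33, at the entries centred 6131 and 6155 bases from the 5′ end.

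A lower 3′ part was also seen in msl-2. Its 5′ entries were at 0.12 in FH-cortoCD and 0.14 to 0.15 in RpL12-Myc, while the last 1442 bases had 492, 523, 560 and 479 reads and were at -0.44 (edgeR adjusted P-value 4.46e-06) and -0.41 (1.62e-05). In w1118 the values were -0.07 and 0.12. In mle the order was mixed. Its main entry (3741 bases on chromosome 2R) had 3061, 3160, 3702 and 2941 reads and was at -0.53 and -0.54, and the 154-base entry at its 5′ end, with 51, 52, 112 and 96 reads, was lower still, at -1.39 (1.91e-08) and -1.41 (7.14e-09). That entry passed the fold limit but not the P-value cut-off. Of the entries between them, those of 517 and 633 bases lay higher than the main entry, between -0.23 and 0.02, and one of 160 bases lay lower, at -0.86 in FH-cortoCD and -0.63 in RpL12-Myc (-0.37 in w1118). In w1118 the main entry of mle was at 0.01 and the 154-base entry at 0.12.

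The RNA of the remaining MSL genes changed by less than the fold limit. msl-1, the scaffold of the complex (5017 bases on chromosome 2L), had 2951, 3051, 3204 and 2568 reads and fold changes of -0.37 and -0.38, with edgeR adjusted P-values of 1.04e-22 and 4.91e-24, past the P-value cut-off and under the fold limit. msl-3, the chromodomain subunit, had 732, 911, 619 and 540 reads in its most abundant entry, at -0.01 in FH-cortoCD, 0.25 (0.00267) in RpL12-Myc and 0.15 in w1118. The other entries of msl-3 did not rise with it. That of 823 bases was at -0.28, -0.26 and -0.05 in FH-cortoCD, RpL12-Myc and w1118, and that of 636 bases at -0.07, -0.04 and -0.09. The 823-base entry overlaps form3 on the other strand by 88 bases. mof, on the X, had 1288, 1363, 937 and 770 reads and was at 0.21 (0.00255) and 0.23 (0.00048). Thus mle and msl-1 lay below sd::Gal4/+ in both assays and mof slightly above, each by less than the fold limit.

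The roX RNAs were low in all pools. roX1 (3748 bases, X from 3752973 to 3756720) had 428, 586, 573 and 814 reads, the last in the smallest library. Reads covered 81.5% to 93.0% of its bases in each file. Its log2 fold change was -0.67 ± 0.09 (edgeR adjusted P-value 1.65e-12) in FH-cortoCD, -0.27 ± 0.08 (0.00399) in RpL12-Myc and 0.85 ± 0.08 (1.81e-25) in w1118. The last passed the P-value cut-off but not the fold limit, in a comparison in which 0.226% of all entries were higher by that cut-off alone. Against w1118 in place of sd::Gal4/+, roX1 was called lower in both assays, at -1.52 (5.51e-73) and -1.13 (1.58e-46). The share of all entries called in those comparisons is not given here. w1118 was also the library with the least fat body RNA, and the part of this in the roX1 level was not tested. roX2 had 11, 18, 8 and 12 reads in its 573-base entry and 11, 21, 8 and 17 in its 1285-base entry. The exact intervals of the former counts, 5.49 to 19.7, 10.7 to 28.4, 3.45 to 15.8 and 6.20 to 21, all overlap, and 26% to 50.1% of its bases were covered. Per base, roX1 exceeded roX2 by 6.37, 5.26, 11.8 and 11.2 times.

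Genes that act with these regulators were counted by list, each gene by its most abundant entry and with at least 10 reads in both libraries. Of the 14 partners of Sxl in splicing and translation, 1 was called lower in FH-cortoCD and 4 in RpL12-Myc, where 2.07% and 2.64% of all genes were called lower. None was called higher in the assays (2.06% and 1.13% of all genes) or called in w1118 (0.0684% higher and 0.525% lower). The 4 were Hrb27C, an RNA-binding protein that acts with SXL on msl-2 mRNA, how, mub and Psi, which encode KH-domain RNA-binding proteins. mub had 4798, 4130, 8594 and 6941 reads, at -1.09 and -1.36, and was the gene called in both assays. how was at -0.99 and -1.28, Hrb27C at -0.94 and -1.17, and Psi at -0.99 and -1.03. In w1118 these 4 lay between -0.11 and 0.04. The median of the list was -0.37 in FH-cortoCD and -0.29 in RpL12-Myc, against 0.00 and 0.01 over all genes, and at an adjusted P-value below 0.05 alone 11 and 10 of the 14 were lower and 2 higher in each, where 31.4% and 30.0% of all genes were lower and 31.5% and 33.4% higher. Psi, how and Hrb27C had values just either side of the limit, so that the count of 1 against 4 rests on small differences, and the difference between the assays was not tested.

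In the other lists 0 genes were called in any of the 3 comparisons. At an adjusted P-value below 0.05 alone, 31.5% of all genes were higher and 31.4% lower in FH-cortoCD, and 33.4% and 30.0% in RpL12-Myc. In w1118, 734 of 8770 genes were higher and 1143 lower. Of the 17 MSL and NSL partners listed, 16 were matched. By that cut-off 3 were higher and 9 lower in FH-cortoCD, 3 and 7 in RpL12-Myc, and 5 and 5 in w1118. Their medians were -0.09, -0.05 and 0.04. Of the 7 X-counting genes and regulators of the Sxl promoter with enough reads, of 9, 1 was higher and 3 lower in each assay. In w1118, 0 of them passed. Of the 10 partners and targets of tra and dsx, 6 had enough reads, and 1 was higher and 3 lower in each assay. In w1118, 0 of these were higher and 2 lower. The yolk protein genes Yp1, Yp2 and Yp3, targets of DSX in the adult female fat body, had 0 to 10 reads in each library. Of the 12 Y-linked genes listed, only ARY was matched by name, and it had 0 reads in every library. The files place the matched entry, of 170 bases, on 3LHet and not on the Y, so it is no measure of Y-linked RNA.

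Genes of the X chromosome, on which the MSL complex acts in males, were compared with those of the autosomes. The pools are stated to be female, so the values are not read as a measure of dosage compensation. Among genes, unnamed loci included, that reached 100 reads in all libraries, 1244 lay on the X and 5850 on the autosomes. The median log2 fold change on the X was 0.057 in FH-cortoCD, 0.109 in RpL12-Myc and -0.021 in w1118, and on the autosomes 0.001, 0.021 and -0.008. The X thus stood above the autosomes by 0.056 and 0.088 in the assays and below by 0.013 in w1118. The quartiles of single X genes were -0.21 to 0.30 in FH-cortoCD and -0.15 to 0.35 in RpL12-Myc. The shifts are a description, with no replicate check. The median level of X genes per length was 0.997, 1.012, 0.974 and 0.957 times that of autosomal genes. The arms 2L, 2R, 3L and 3R had medians between -0.02 and 0.04. The fourth chromosome differed from them: its 58 genes had medians of -0.58 in FH-cortoCD, -0.75 in RpL12-Myc and 0.06 in w1118.

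**Figure D5:**
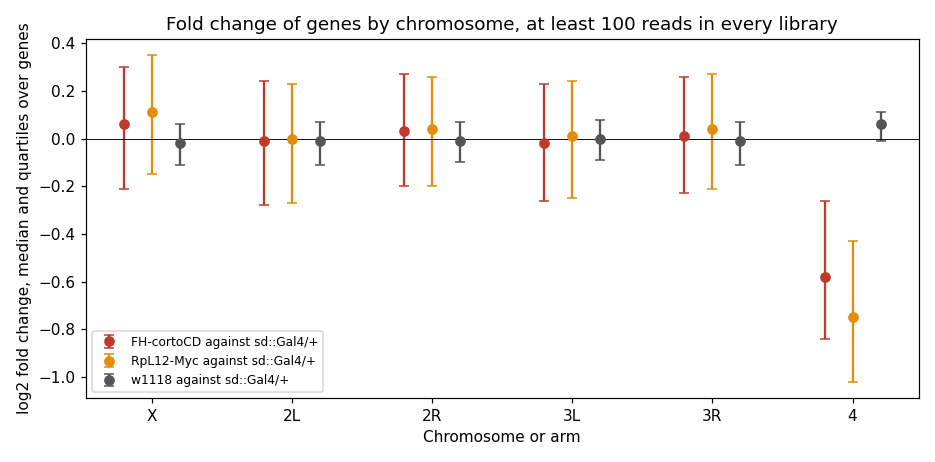
Median log2 fold change against sd::Gal4/+ of genes that reached 100 reads in all libraries, by chromosome or arm, with bars from the lower to the upper quartile over genes. The X lies at 0.06, 0.11 and -0.02 in FH-cortoCD, RpL12-Myc and w1118, and chromosome 4 at -0.58, -0.75 and 0.06.

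Finally, genes with the most similar profile over the 4 libraries were sought for each of Sxl, dsx, msl-2 and roX1, by the root mean square difference of centred log2 RPM, among 6884 named genes that reached 100 reads in all libraries. roX2 had under 10 reads in sd::Gal4/+ and was left out. For Sxl they were Mkp3 (0.0037), rpk (0.0118) and Klp10A (0.0125), and for dsx, by its common exons, wus (0.0145), CG3793 (0.0146) and Gart (0.0149). For msl-2 they were ScpX (0.0029), cdm (0.0036) and nSMase (0.0046). roX1 had no close neighbour, the nearest being pst (0.1057), TwdlT (0.1116) and inaD (0.1168). With 4 libraries these distances are a description only.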

How the data were processed

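Polyadenylated RNA was sequenced as read pairs of 50 bases. By the study's methods the authors aligned reads with Bowtie to dm3, removed reads matching more than once, and counted alignments overlapping the exons of FlyBase entries. Whether the counts use strand is not given in the sources used here, so they were read as unstranded. Bowtie of that generation aligns without gaps, and reads across splice junctions are then lost, which lowers the counts of short exons. The submitters' processing notes also name CASAVA 1.7, SAMtools and edgeR 1.6.10. The authors deposited raw counts for each read of the pairs, and the fraction (Ratio) that each count makes of its library, from which only the number of alignments behind each file was computed.

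The counts of both reads were summed. The totals, in the order FH-cortoCD, RpL12-Myc, control and w1118, were 43698298, 44736060, 35219666 and 26833482, or 1.26 times the alignments. Entries were named by transcript ID in a BDGP6 annotation (27902 entries) or through an entry sharing transcripts (1057), and 1962 entries with 5.64% of counts stayed unnamed. Coordinates are those of the files. Reads of each library and of the control were put to the binomial test (edgeR 4.0.16, R 4.3.3), with TMM sizes estimated over the 4 libraries and P-values adjusted by Benjamini-Hochberg over 30950 entries, and the script was tested on simulated data. Intervals of shares are Clopper-Pearson and those of levels exact Poisson, from scipy. The text names all members and the 3 genes nearest in profile. From the lists of genes that act with the members, it names those called at least once (at most 4 per list by size of change). Some tissue markers were also called, and they are given mainly as summed levels. Alternatives were raw counts without scaling, size factors from DESeq2 1.42.0, totals, other cut-offs, a minimum of 10 reads, each read alone, edgeR's exact test, w1118 as control and sums over entries. The members and lists were chosen with earlier results of these data known. The listed genes Mtor, Sgs4, vas and nos, 11 Y-linked genes and the study's binding experiments were not analysed here.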

Additional observations from a re-analysis of the deposited data

How the results depend on the processing

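Of 342 values recomputed under an alternative, 303 kept their direction and their side of the threshold or stayed within the main interval. The count of member entries called lower was 1 in each assay. It was 0 in both with unscaled fold changes, an absolute log2 limit of 2, the first reads alone or the second reads alone. It was 2 in FH-cortoCD and 3 in RpL12-Myc at an adjusted P-value below 0.05, 2 in each with edgeR's exact test and the dispersion of the control libraries, and 3 in each with w1118 as the control. The share of all entries called against w1118 is not given here, so the 3 cannot be compared with it. The number called higher was 0 under every alternative run. The cause was not tested, except that each read alone gives lower counts and an unscaled fold change ignores library size. With unscaled counts the direction turned in w1118 for tra (-0.16), msl-1 (-0.32), msl-3 (-0.20), mle (-0.33), mof (-0.28) and the dsx male exons (-0.15), in FH-cortoCD for dsx (0.18) and msl-3 (0.24), and in RpL12-Myc for roX1 (0.03). With w1118 as the control it turned for dsx (0.13) and roX2 (-1.22) in FH-cortoCD and for roX2 (-0.35) in RpL12-Myc. Sums over all entries turned dsx in RpL12-Myc (-0.34) and mle in w1118 (-0.02). The second reads alone turned msl-3 in FH-cortoCD (0.03), and the female exon of dsx in w1118 turned with total counts (0.03) and the first reads alone (0.02). None of these turned values was called. No paired analysis was possible because each group has 1 library, and for the same reason no library could be left out within a group.

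Precision was low for roX2 and the msl-2 intron, with 4 to 21 reads per library, and for the 557-base dsx entry, with 0 to 5.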

Other observations

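The lower values of chromosome 4 were spread over its genes. Of its 58 genes that reached 100 reads in all libraries, 54 lay below sd::Gal4/+ in FH-cortoCD (libraries as labelled), 55 in RpL12-Myc and 53 in both, whereas 15 lay below in w1118. By the rule used for the entries, 9 and 16 of them were called lower in the assays and 0 in w1118, and 0 were called higher. On the X, 20 and 24 of 1244 genes were called lower in the assays, and on 2L 28 and 35 of 1245. On 2R they were 26 and 43 of 1448, on 3L 22 and 27 of 1383, and on 3R 26 and 40 of 1716. Of all genes with at least 10 reads in both libraries, 2.07% and 2.64% were called lower and 2.06% and 1.13% higher. Against w1118 the medians of chromosome 4 were -0.66 and -0.86. The assays share each control, so these values are not independent. Genes of chromosome 4 also had longer most abundant entries, with a median of 2422 bases against 1736 to 1942 on the other arms, and the part of length was not tested. Pof, which encodes a protein that binds along chromosome 4 and was looked up after these values were seen, had 759, 845, 494 and 468 reads in the order FH-cortoCD, RpL12-Myc, control, w1118. On the log2 scale it stood at 0.37 and 0.47 for the assays and 0.27 for w1118, under the fold limit in each.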
